A study of Rattus norvegicus with 12 samples.

Results

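Aldh1a3, Cyp24a1 and Cyp1a1 encode enzymes that make or break down ligands of nuclear receptors and of the aryl hydrocarbon receptor. They were taken by gene symbol from an RNA-seq table of primary rat astrocytes exposed to PT109B, a small molecule named here only by its code, and are 3 of the 9721 genes in that table. The 3 genes were chosen by their measured levels, which differed between the treated and control libraries of these same data, so their levels and fold changes below are a description and carry no test. The cells came from the midbrain of newborn wild-type SD rats and grew in medium with fetal bovine serum. There were 4 groups of 3 libraries each: a control group at 0 h, and cells that had 10 µM PT109B for 1.5, 3 or 6 h. The labels do not tie the 3 libraries of a group to separate cultures, so the p-values below reflect how far libraries differed, and part of that may be technical. No time-matched vehicle group was labelled.

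Retinoic acid is made from retinaldehyde by the retinaldehyde dehydrogenases ALDH1A1, ALDH1A2 and ALDH1A3 and is cleared by the CYP26 enzymes. It acts through retinoic acid receptors (RAR) paired with retinoid X receptors (RXR). CYP24A1 is the mitochondrial enzyme that breaks down active vitamin D, and its gene is a classical target of the vitamin D receptor. CYP1A1 oxidises polycyclic aromatic compounds and tryptophan-derived ligands of the aryl hydrocarbon receptor (AhR), and its gene is the standard readout of that receptor. In brain, astrocytes are among the cells that take part in retinoid and xenobiotic metabolism.

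Total counts ran from 9368967 to 12498047 per library. The table held 7 of 8 astrocyte markers, with summed levels of 3306 to 6473 CPM (counts relative to scaled library size) in all 12 libraries and none at 0. One library in each treated group stood apart from the other pair: replicate 3 at 1.5 h, replicate 3 at 3 h and replicate 1 at 6 h. Across 9491 genes the correlation of log2 CPM was 0.991, 0.991 and 0.990 within the other pairs at 1.5, 3 and 6 h, against 0.897 to 0.898, 0.941 and 0.944 to 0.945 between those pairs and the library apart. Replicate 3 at 1.5 h correlated at 0.970 to 0.976 with the control libraries, and replicate 3 at 3 h correlated at 0.977 with replicate 1 at 6 h. With control, replicate 3 at 3 h correlated at 0.955 to 0.960 and replicate 1 at 6 h at 0.944 to 0.947. The pairs correlated with control at 0.8869 to 0.9155, 0.9071 to 0.9151 and 0.8992 to 0.9032 at 1.5, 3 and 6 h. The pairs thus lay further from control than the libraries apart did. Which of them better represents its time was not tested. Several sets of other markers moved with the same split, apart from mitosis markers at 1.5 h. The summed level of 13 of 13 microglia markers was 1732 to 2165 CPM in control libraries, 187 and 192 CPM in the 1.5 h pair against 2241 CPM in the library apart, 1163 and 1173 CPM against 1946 CPM at 3 h, and 1001 and 1063 CPM against 1748 CPM at 6 h. The sum of 9 of 9 mitosis markers was 949 to 1286 CPM in control libraries, 912 to 1072 CPM at 1.5 h, 63.9 and 72.2 CPM in the 3 h pair against 719 CPM in its library apart, and 49.3 and 54.7 CPM in the 6 h pair against 672 CPM. Neuron markers (5 of 7 measured) summed to 190 to 242 CPM in control libraries, 441 and 456 CPM in the 1.5 h pair against 204 CPM in its library apart, 367 and 383 against 226 CPM at 3 h, and 345 and 348 against 209 CPM at 6 h. Oligodendrocyte lineage markers (9 of 10) summed to 631 to 653 CPM in control libraries, 706 and 753 against 566 CPM at 1.5 h, 1048 and 1082 against 531 CPM at 3 h, and 888 and 901 against 545 CPM at 6 h. Fibroblast and meningeal markers (7 of 10) summed to 1246 to 1588 CPM in control libraries. They summed to 5446 and 5656 CPM in the 1.5 h pair against 1318 CPM in its library apart. At 3 h the sums were 1840 and 1875 against 1255 CPM, and at 6 h 1256 and 1347 against 1032 CPM. No microglia or mitosis marker was at 0 in any library. For bulk RNA, fewer cells of a type and less RNA per cell cannot be told apart, and the part of these cells in the values below was not tested. Values of the 3 enzymes are therefore given with and without the libraries standing apart, and values of other named genes where leaving these libraries out changed a call. The libraries were picked by their difference in these same data. Leaving them out narrows the spread within groups, so calls made without them are not separate support.

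Aldh1a3 (ENSRNOG00000052070) encodes a retinaldehyde dehydrogenase, the step that yields retinoic acid. Its promoter is shown because it is the only one of the 3 enzymes with an entry in the promoter table used, RefSeq on the rat build GRCr8. The window is chr1:129427594-129427893 on the minus strand, 250 bases before and 50 bases after the annotated transcript start, printed 5′ to 3′. Capitals mark matches on either strand to GCGTG (the core bound by AhR and its partner), GGGCGG (the Sp1 box, here also as its reverse complement) and CCAAT.
Aldh1a3 promoter: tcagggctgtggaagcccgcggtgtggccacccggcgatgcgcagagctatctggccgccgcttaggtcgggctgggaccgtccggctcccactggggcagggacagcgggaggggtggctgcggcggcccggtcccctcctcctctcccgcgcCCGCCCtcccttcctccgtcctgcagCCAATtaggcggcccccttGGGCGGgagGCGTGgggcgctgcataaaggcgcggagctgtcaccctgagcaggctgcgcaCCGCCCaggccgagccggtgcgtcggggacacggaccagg
GCGTG was found 1 time, at -42 to -38 from the start, and 29.7% of 33469 promoters of this length held it. GGGCGG was found 3 times, at -96 to -91, -51 to -46 and 10 to 15, against 33.1% of promoters with at least 1 match, and CCAAT was found 1 time, at -70 to -66, against 37.5%. No match was found to 2 copies of the retinoic acid receptor half-site AGGTCA in direct repeat 5 bases apart (0.00896% of promoters), 2 copies 3 bases apart as bound by the vitamin D receptor (0.0239%), the AP-1 motif TGANTCA (7.33%), the cAMP response element TGACGTCA (1.83%) or the EGR1 motif GCGTGGGCG (0.544%), whose first letters are those of the AhR core. The window was 74.3% G and C, against a median of 51.7% over all promoters in the table. A match describes letters in this window and not a bound site.

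Aldh1a3 was low in control cells and higher at each time. Its level was 4.54, 5.28 and 3.96 CPM in the control libraries, 9.16, 7.45 and 5.34 CPM at 1.5 h, 13.4, 19.8 and 83.9 CPM at 3 h, and 176, 74.0 and 87.2 CPM at 6 h. The treated libraries lay above every control library at all 3 times, though at 1.5 h the lowest treated library was within 0.1 CPM of the highest control. Libraries at 1.5 and 3 h did not overlap, and those at 3 and 6 h did, through replicate 3 at 3 h. The share of all genes without overlap between treated times was not counted. Group means were 4.59 ± 0.664 CPM in control, 7.31 ± 1.91 CPM at 1.5 h, 39.0 ± 39.0 CPM at 3 h and 112 ± 55.3 CPM at 6 h (SD, n = 3 each). Of all 9491 genes tested, 12.9% at 1.5 h, 23.4% at 3 h and 28.2% at 6 h also had 3 treated libraries above every control library. On the log2 scale the fitted fold change against control was 0.67 ± 0.64, 3.08 ± 0.66 and 4.61 ± 0.69 (SE) at 1.5, 3 and 6 h, and the group means were 1.59, 8.50 and 24.4 times the control mean. By size of log2 fold change it stood 964th, 73rd and 11th from the top of the 9491 genes. The 3 comparisons share the control libraries.

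The libraries standing apart carried the highest Aldh1a3 values at 3 and 6 h and the lowest at 1.5 h. At 3 h replicate 3 held 83.9 CPM against a mean of 16.6 CPM in the other pair, a ratio of 5.06, and at 6 h replicate 1 held 176 CPM against 80.6 CPM, a ratio of 2.18. At 1.5 h the library apart held 5.34 CPM against 8.30 CPM. Relative to the control mean, the pairs alone gave 1.81, 3.61 and 17.5 times the control level at 1.5, 3 and 6 h, and the libraries apart gave 1.16, 18.3 and 38.3 times. The order of the times was the same in both. Without the 3 libraries the fitted log2 fold change was 0.83 ± 0.21, 1.77 ± 0.20 and 4.03 ± 0.18, and without replicate 3 at 3 h alone it was 1.78 ± 0.38 at that time.

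**Figure D1:**
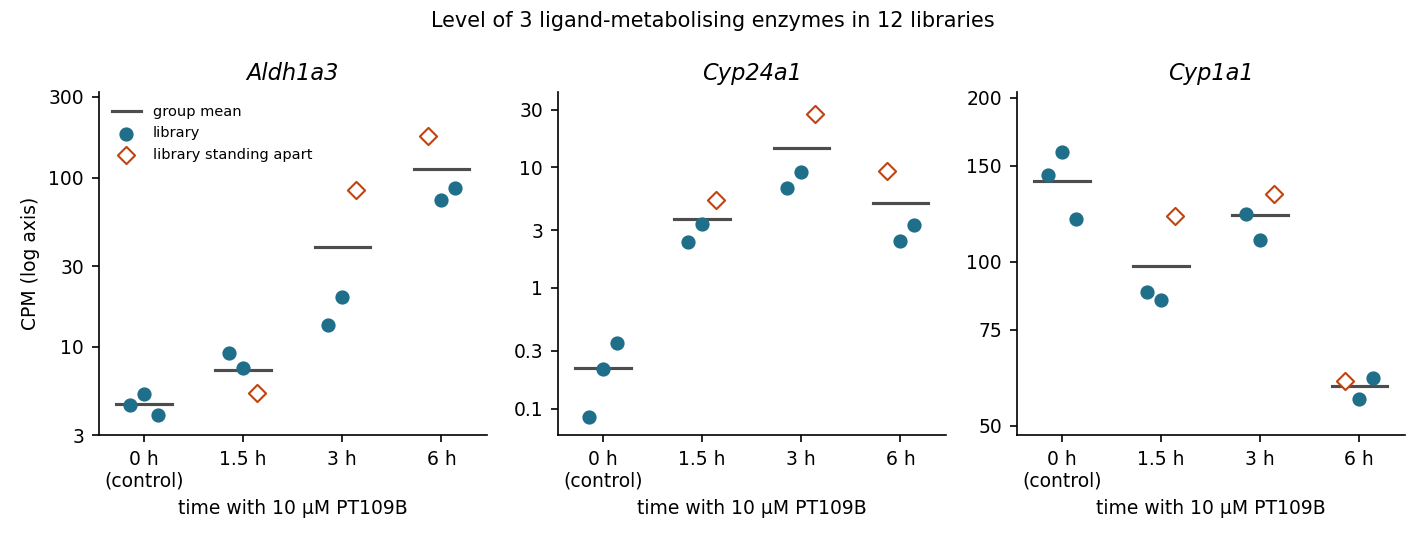
Level of Aldh1a3, Cyp24a1 and Cyp1a1 in each of the 12 libraries, in CPM on a log axis that differs between panels, by time with 10 µM PT109B. Filled points are libraries, open diamonds the 3 libraries standing apart, and bars the group means: Aldh1a3 is highest at 6 h (74.0 to 176 CPM), Cyp24a1 at 3 h (6.69 to 27.8 CPM), and Cyp1a1 is lowest at 6 h (55.9 to 61.3 CPM).

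Among the retinaldehyde dehydrogenases, Aldh1a3 was a minor transcript in control cells and the main one at 6 h. Levels per length (FPKM, fragments scaled by transcript length and depth, as deposited) of Aldh1a3 were 1.01, 1.19 and 0.878 in control libraries, 1.95, 1.59 and 1.12 at 1.5 h, 2.27, 3.44 and 17.3 at 3 h, and 37.4, 13.6 and 16.3 at 6 h. Its share of the summed FPKM of Aldh1a1, Aldh1a2 and Aldh1a3 was 13.7%, 17.1% and 16.0% in control libraries, 15.0%, 12.8% and 19.2% at 1.5 h, 24.7%, 30.8% and 82.2% at 3 h, and 90.5%, 66.3% and 65.9% at 6 h. The 6 h shares all lay above those of control, and the 1.5 h shares overlapped them. The sum over the 3 genes was 20.5 to 41.3 FPKM at 6 h, against 5.48 to 7.38 FPKM in control libraries. Aldh1a1 and Aldh1a2 are named here after their values were seen, and neither passed the test at any time in the fit to all 12 libraries. Aldh1a1 averaged 5.05, 7.52, 5.80 and 6.08 FPKM at 0, 1.5, 3 and 6 h, and its log2 fold change at 6 h was 0.42 ± 0.48. Aldh1a2, which also serves as a fibroblast and meningeal marker, averaged 0.519, 1.31, 0.331 and 0.357 FPKM. It was highest in the 1.5 h pair (1.58 and 1.61 FPKM), where the sum of 7 measured fibroblast and meningeal markers was 5446 and 5656 CPM, against 1246 to 1588 CPM in control libraries. The part of such cells in the Aldh1a2 value was not tested. In the 14 aldehyde dehydrogenase genes of the table, Aldh1a3 ranked 13th by mean FPKM in control cells and 8th at 6 h.

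**Figure D2:**
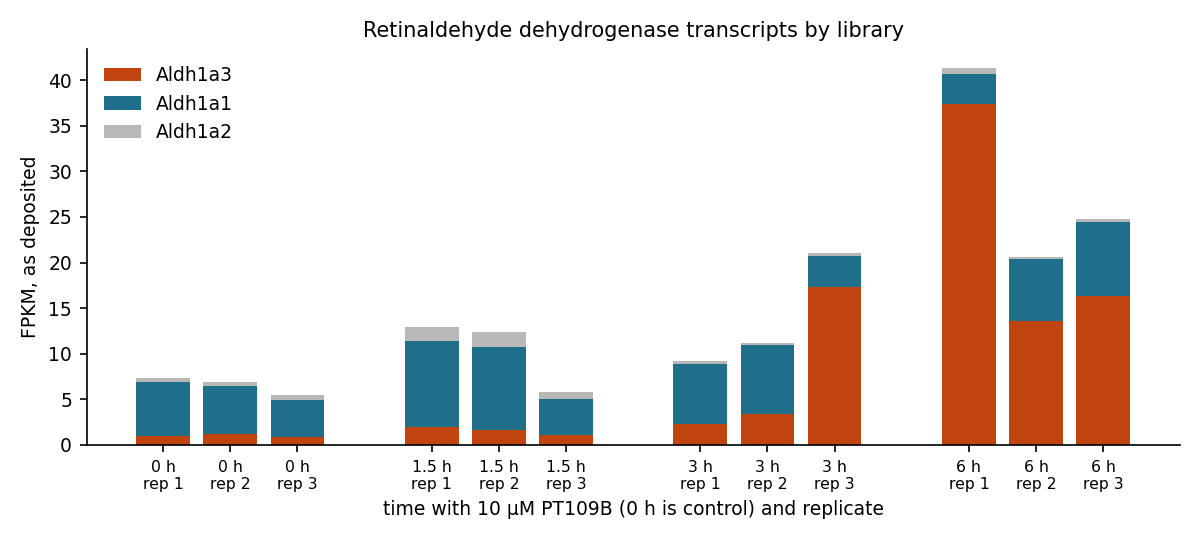
Stacked bars give the deposited FPKM of Aldh1a3, Aldh1a1 and Aldh1a2 in each library, ordered by time with 10 µM PT109B and replicate. The Aldh1a3 segment makes up 13.7% to 17.1% of the bar in control libraries and 65.9% to 90.5% at 6 h, and at 3 h it is 82.2% in replicate 3 against 24.7% and 30.8% in the other pair.

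Cyp24a1 (ENSRNOG00000013062), whose product inactivates vitamin D, was nearly absent from control cells. Its estimated counts were 1, 3 and 4 reads in the control libraries, 24, 43 and 53 reads at 1.5 h, 68, 83 and 304 reads at 3 h, and 109, 24 and 29 reads at 6 h. The corresponding levels were 0.0856, 0.214 and 0.352 CPM in control, 2.41, 3.37 and 5.34 CPM at 1.5 h, 6.69, 9.13 and 27.8 CPM at 3 h, and 9.33, 2.46 and 3.31 CPM at 6 h. All 9 treated libraries lay above the 3 control libraries. Of all 9491 genes tested, 12.9%, 23.4% and 28.2% also had 3 treated libraries above every control library at 1.5, 3 and 6 h. The 3 h libraries lay above those at 1.5 h without overlap, and the 6 h libraries overlapped both. How many genes did so between treated times was not counted. Group means were 0.217 ± 0.133, 3.71 ± 1.49, 14.6 ± 11.6 and 5.04 ± 3.74 CPM at 0, 1.5, 3 and 6 h (SD, n = 3 each). Because the control group held 8 reads in all, the ratio was also taken from summed reads: 120 reads at 1.5 h against 8 in control gave 17.0 times the control level per depth (95% exact binomial interval 8.37 to 40.4). At 3 h, 455 reads gave 69.8 times (35.1 to 163), and at 6 h, 162 reads gave 24.9 times (12.3 to 58.6). These intervals cover counting error only, and reads are not independent molecules. They pool libraries that differed, and Cyp24a1 was chosen by these same levels, so the intervals are no test of a difference.

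The fitted log2 fold change of Cyp24a1 was 4.03 ± 0.83, 6.00 ± 0.85 and 4.48 ± 0.83 (SE) at 1.5, 3 and 6 h, which placed it 13th, 4th and 14th from the top of all tested genes. Between times the log2 difference was 1.97 ± 0.65 for 3 h against 1.5 h and -1.52 ± 0.64 for 6 h against 3 h, while for Aldh1a3 the same differences were 2.42 ± 0.64 and 1.52 ± 0.60. For scale, 20.3% of all tested genes passed the test for 3 h against 1.5 h and 4.05% for 6 h against 3 h. Cyp24a1 was highest at 3 h and Aldh1a3 at 6 h. The library apart was the highest of its group at each time, at 1.84, 3.52 and 3.23 times the mean of the other pair at 1.5, 3 and 6 h. Pairs alone stood at 13.3, 36.4 and 13.3 times the control mean, and libraries apart at 24.6, 128 and 42.9 times, both with the top at 3 h. Without the 3 libraries the fitted log2 fold change was 3.69 ± 0.50, 5.06 ± 0.45 and 3.58 ± 0.51. Leaving out replicate 3 alone at 3 h gave 5.06 ± 0.74, and leaving out replicate 1 alone at 6 h gave 3.67 ± 0.78.

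Even at its highest, Cyp24a1 was a modest transcript. Its mean was 0.0507, 0.825, 2.97 and 1.07 FPKM at 0, 1.5, 3 and 6 h, above 1.11%, 11.6%, 31.5% and 16.0% of the 9721 genes of the table. Among 20 cytochrome P450 genes it ranked 19th in control cells and 13th, 10th and 12th at 1.5, 3 and 6 h. Cyp27b1, which makes the active vitamin D that CYP24A1 breaks down, had a mean of 0.110, 0.198, 0.364 and 1.22 CPM at 0, 1.5, 3 and 6 h and was too low to be tested.

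Cyp1a1 (ENSRNOG00000019500) was the abundant member, and it was lower in treated cells. Its level was 144, 159 and 120 CPM in the control libraries, 87.8, 85.2 and 121 CPM at 1.5 h, 122, 109 and 133 CPM at 3 h, and 60.4, 55.9 and 61.3 CPM at 6 h. The 6 h libraries lay below every other library of the series and differed little among themselves, while those at 1.5 and 3 h overlapped control and each other. Means were 141 ± 20, 98.1 ± 20.1, 122 ± 12 and 59.2 ± 2.87 CPM at 0, 1.5, 3 and 6 h (SD, n = 3 each). Of all tested genes, 27.5% had their 3 libraries at 6 h below every control library. The share with 6 h libraries below every other library of the series was not counted. The fitted log2 fold change was -0.52 ± 0.16, -0.21 ± 0.16 and -1.25 ± 0.16 (SE) at 1.5, 3 and 6 h, the last 633rd from the bottom of 9491 genes. The log2 difference of 6 h against 3 h was -1.04 ± 0.16, and of 6 h against 1.5 h it was -0.73 ± 0.16, a comparison in which 37.6% of all genes passed. How far the 3 h level lay above that at 1.5 h depended on the scaling. With library-size scaling the log2 fold changes at 1.5 and 3 h were -0.60 ± 0.19 and -0.51 ± 0.19, and on log2(FPKM + 1) they were -0.59 ± 0.18 and -0.48 ± 0.18.

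Unlike the other 2 enzymes, Cyp1a1 at 6 h did not follow the split of the libraries. Replicate 1 at 6 h held 60.4 CPM against 58.6 CPM in the other pair, a ratio of 1.03, and the ratios at 1.5 and 3 h were 1.40 and 1.15. Against the control mean, pairs alone were at 0.614, 0.823 and 0.416 times and libraries apart at 0.861, 0.946 and 0.429 times. Without the 3 libraries the log2 fold change was -0.71 ± 0.11, -0.34 ± 0.10 and -1.35 ± 0.11. Per length, Cyp1a1 averaged 40.4, 26.7, 28.9 and 14.8 FPKM at 0, 1.5, 3 and 6 h, always 4th of the 20 P450 genes. Its relative Cyp1b1, also an AhR target, averaged 176, 135, 164 and 114 FPKM and was not called at any time, with log2 fold changes of -0.31 ± 0.24, 0.19 ± 0.24 and -0.42 ± 0.24, of which the 3 h value turned negative under other scalings. At 6 h it was called with library-size scaling (-0.66 ± 0.19, adjusted p = 0.0234), with implied depth (-0.63 ± 0.19, adjusted p = 0.0290) and by limma on log2(FPKM + 1) (-0.64 ± 0.18, adjusted p = 0.0219). Without the libraries standing apart Cyp1b1 was called at all 3 times, with log2 fold changes of -0.51 ± 0.09, 0.26 ± 0.09 and -0.30 ± 0.09 at 1.5, 3 and 6 h (adjusted p = 0.000285, 0.0213 and 0.00903). Cyp1a1 made up 8.99% to 15.8% of the summed Cyp1a1 and Cyp1b1 FPKM at 6 h, against 16.7% to 21.9% in control libraries. The paralogue Cyp1a2 was not analysed here.

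**Figure D3:**
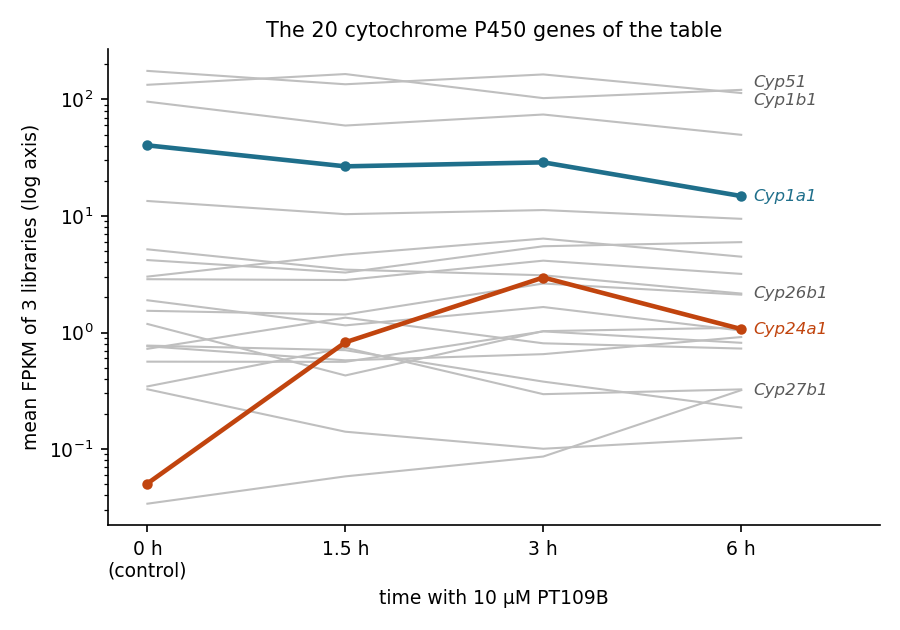
Mean deposited FPKM of 3 libraries per group on a log axis, for the 20 cytochrome P450 genes of the table, by time with 10 µM PT109B. Cyp24a1 lies at 0.0507 FPKM in control cells, 2.97 FPKM at 3 h and 1.07 FPKM at 6 h, and Cyp1a1 keeps 4th place while its mean is 40.4 FPKM in control cells and 14.8 FPKM at 6 h.

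The other P450 genes were counted apart from Cyp24a1 and Cyp1a1. Of the 17 other P450 genes tested with edgeR's quasi-likelihood test, 0 were called at 1.5, 3 or 6 h (adjusted p below 0.05), against 3.32%, 21.4% and 30.5% of all tested genes. At an unadjusted p below 0.05 there were 0, 5 and 3 of them, DESeq2 called 0, 2 and 3, and limma on log2(FPKM + 1) called 0, 0 and 2. Among P450 redox partners, which pass electrons to these enzymes, 0 of 5 were called at 1.5 and 3 h and 1 at 6 h. At an unadjusted p below 0.05 there were 0 at 1.5 h and 4 at 3 h, and DESeq2 and limma each called 0 at 1.5 h and 1 at 3 h. The 1 was Fdx1, the ferredoxin that serves mitochondrial P450 enzymes such as CYP24A1, which rose by 0.82 ± 0.27 on the log2 scale at 6 h (adjusted p = 0.0401). That call was lost without any 1 library other than replicate 1 at 6 h, with values of 0.66 to 0.97 (adjusted p = 0.0563 to 0.131).

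Genes of the 3 ligand pathways were counted in 4 lists (retinoid supply, retinoid receptors and targets, vitamin D, and AhR) with the 3 enzymes left out. Of 52 tested genes, 2 rose and 0 fell at 1.5 h, 7 rose and 3 fell at 3 h, and 8 rose and 5 fell at 6 h, which is 3.85%, 19.2% and 25% called. Of all tested genes 1.95% rose and 1.37% fell at 1.5 h, 13.5% rose and 7.94% fell at 3 h, and 18.7% rose and 11.8% fell at 6 h, so the shares of the 52 were near the background. The median log2 fold change of the 52 was 0.05, 0.06 and -0.05, against -0.01, -0.03 and -0.02 over all genes. Scaling by library size alone moved the median of all genes to -0.34 at 3 h and -0.24 at 6 h. The split then became 6 higher and 8 lower at 3 h, and 6 higher and 12 lower at 6 h. Among calls given below, that scaling ended those of Rdh10 and Scin at 6 h and of Atp2b1, Aldh18a1, Aldh1l2 and Aldh6a1 at 3 h, and that of Fdx1 above. The limma fits also ended these calls other than that of Scin, as well as the call of Cubn, and fits of only 2 groups ended those of Rdh10, Ncor1 at 3 h, Meis1, Aldh18a1 and Aldh6a1. Without the 3 libraries standing apart 36, 33 and 40 of 53 genes were called, when 59.2%, 70.9% and 75.1% of all genes were. All 31 calls on named genes that the text gives held without these libraries, and 13 of 17 uncalled values of the fixed receptors and enzymes were then called. Because these libraries were picked for their distance from their groups, leaving them out narrows the spread. Calls that hold or appear in that setting are therefore not separate support.

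In retinoid supply, 0 of 11 other genes were called at 1.5 h (1 at an unadjusted p below 0.05, 1 by DESeq2, 0 by limma), 1 rose at 3 h and 2 rose at 6 h. That is 9.09% and 18.2% called at 3 and 6 h, against 21.4% and 30.5% of all tested genes, and 3.32% of these at 1.5 h. Rbp4, the plasma carrier of retinol, was 4.92, 5.06 and 4.40 CPM at 3 h and 4.54, 6.36 and 5.60 CPM at 6 h, against 0.942, 0.428 and 1.06 CPM in control libraries. It rose by 2.56 ± 0.46 and 2.76 ± 0.47 on the log2 scale at 3 and 6 h (adjusted p = 0.00411 and 0.00178), with no overlap, and the libraries apart lay near the other pair. For scale, 23.4% of all tested genes at 3 h and 28.2% at 6 h also had 3 treated libraries above every control library. Rdh10, which makes the retinaldehyde that ALDH1A3 uses, rose by 0.67 ± 0.22 at 6 h (adjusted p = 0.0446). Leaving out any 1 library other than replicate 1 at 6 h ended that call, with values of 0.47 to 0.72 (adjusted p = 0.0847 to 0.201). Cyp26b1, which clears retinoic acid, had a log2 fold change of -0.50 ± 0.38, -0.51 ± 0.38 and -1.11 ± 0.39 and missed the threshold (adjusted p = 0.0519 at 6 h). At 6 h it held 22.4 CPM in the library apart and 9.44 and 11.7 CPM in the other pair, against 26.5, 30.3 and 37.2 CPM in control libraries. It was called at 6 h by DESeq2 (-1.11 ± 0.41, adjusted p = 0.0205), by both limma fits (-1.02 ± 0.32 and -1.34 ± 0.42, adjusted p = 0.0330 and 0.0336), with RLE scaling (adjusted p = 0.0491) and in the fit of 2 groups (adjusted p = 0.0321). Without the libraries standing apart its log2 fold change was -0.84 ± 0.16, -0.99 ± 0.16 and -1.66 ± 0.17 at 1.5, 3 and 6 h, called each time (adjusted p = 0.000376, 7.30e-05 and 6.75e-07).

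Of 14 tested retinoid receptors, cofactors and targets, 1 rose at 1.5 h, 1 rose and 3 fell at 3 h, and 3 fell at 6 h. That is 7.14%, 28.6% and 21.4% called, against 3.32%, 21.4% and 30.5% of all tested genes. Rara, encoding RAR alpha, held 98.0, 96.1 and 87.6 CPM at 1.5 h and 92.3, 102 and 86.8 CPM at 3 h, against 40.8, 42.9 and 51.1 CPM in control libraries. At 6 h it was back at 47.9, 39.4 and 41.3 CPM. It rose by 1.06 ± 0.12 on the log2 scale at both 1.5 and 3 h (adjusted p = 0.000937 and 0.00035), and at 6 h its log2 fold change was -0.07 ± 0.12. The libraries apart lay with their groups here. The corepressor genes Nrip1 and Ncor1 both fell: Nrip1 by 0.91 ± 0.18 and 0.72 ± 0.18 on the log2 scale at 3 and 6 h (adjusted p = 0.00616 and 0.0121), and Ncor1 by 0.36 ± 0.11 and 0.62 ± 0.11 (adjusted p = 0.0449 and 0.00263). Meis1 fell by 0.48 ± 0.14 at 3 h (adjusted p = 0.0388) and Meis2 by 0.74 ± 0.24 at 6 h (adjusted p = 0.0353). Both encode homeodomain factors known as retinoic acid targets. The Ncor1 call at 3 h was lost without any 1 library other than replicate 3 at 3 h (-0.42 to -0.29, adjusted p = 0.0665 to 0.144). The Meis1 call was lost without any 1 control library or replicate 1 at 3 h (-0.51 to -0.42, adjusted p = 0.0872 to 0.120), and the Meis2 call without any 1 control library or replicate 1 at 6 h (-0.76 to -0.54, adjusted p = 0.0716 to 0.0940). Rarb, Rarg and Rxra were not called in the fit to all 12 libraries. Rxra, encoding RXR alpha, held 26.0 and 28.5 CPM in the 1.5 h pair and 68.9 CPM in the library apart, against 76.8, 82.3 and 95.1 CPM in control libraries. Its log2 fold changes were -1.04 ± 0.30, -0.60 ± 0.30 and -0.24 ± 0.30 at 1.5, 3 and 6 h. Without the libraries standing apart they were -1.64 ± 0.12, -0.65 ± 0.11 and -0.34 ± 0.11, called each time (adjusted p = 9.35e-09, 8.29e-05 and 0.00928). At 1.5 h Rxra was also called by DESeq2 (adjusted p = 0.0298) and both limma fits (adjusted p = 0.0446 and 0.0456), and at 3 h with library-size scaling (adjusted p = 0.0482), in the fit of 2 groups (adjusted p = 0.0179) and by both limma fits (adjusted p = 0.0437 and 0.0475). The log2 fold changes of Rarg were 0.42 ± 0.15, 0.35 ± 0.15 and 0.31 ± 0.15, and those of Rarb 0.67 ± 0.67, -0.38 ± 0.69 and -0.77 ± 0.70. Without the libraries standing apart Rarg was called at 1.5 h (0.54 ± 0.12, adjusted p = 0.00106), and Rarb at 1.5 h (1.05 ± 0.42, adjusted p = 0.0428) and 6 h (-1.42 ± 0.56, adjusted p = 0.0325). Rxrg was too low to be tested.

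In the vitamin D list, 0 of 15 other tested genes were called at 1.5 h (2 at an unadjusted p below 0.05, 0 by DESeq2 and 0 by limma), 1 rose at 3 h, and 1 rose and 1 fell at 6 h. That is 6.67% and 13.3% called at 3 and 6 h, against 21.4% and 30.5% of all tested genes, and 3.32% of these at 1.5 h. Atp2b1, a plasma membrane calcium pump, rose by 0.67 ± 0.14 and 1.21 ± 0.14 on the log2 scale at 3 and 6 h (adjusted p = 0.00931 and 0.000273). Its group means were 222, 207, 352 and 513 CPM at 0, 1.5, 3 and 6 h. The 3 h call was lost without control replicate 1 (0.60, adjusted p = 0.0512). Cubn, encoding an uptake receptor for the vitamin D binding protein, fell by 1.00 ± 0.33 at 6 h (adjusted p = 0.0394), a call lost without any 1 library other than replicate 1 at 6 h (-1.10 to -0.84, adjusted p = 0.0645 to 0.132). The vitamin D receptor gene was not analysed here.

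In the AhR list, Cyp1a1 was lower at 6 h, while most of the other called genes were higher. Of 12 other tested genes 1 rose at 1.5 h, 4 rose at 3 h, and 5 rose and 1 fell at 6 h. The shares called were 8.33%, 33.3% and 50%, against 3.32%, 21.4% and 30.5% of all tested genes. Calls over all tested genes were also more often higher: 13.5% rose and 7.94% fell at 3 h, and 18.7% and 11.8% at 6 h. The list median was -0.09, 0.81 and 0.48 on the log2 scale. Cyp1b1, not called in the fit to all 12 libraries, was at -0.42 ± 0.24 at 6 h, the direction of Cyp1a1. Ahr itself held 104, 108 and 67.8 CPM at 3 h and 71.1, 101 and 92.8 CPM at 6 h, against 49.4, 50.7 and 40.2 CPM in control libraries, without overlap. For scale, 23.4% of all tested genes at 3 h and 28.2% at 6 h also had 3 treated libraries above every control library. Ahr rose by 0.99 ± 0.24 and 0.91 ± 0.24 (adjusted p = 0.0186 and 0.0178). At 1.5 h its log2 fold change was 0.59 ± 0.24 and not called, and without the libraries standing apart it was 0.79 ± 0.10 and called (adjusted p = 1.14e-05). Tiparp, an AhR target that encodes a repressor of the receptor, held 490, 446 and 499 CPM at 1.5 h, 682, 675 and 299 CPM at 3 h and 236, 355 and 330 CPM at 6 h, against 160, 148 and 121 CPM in control libraries. It rose by 1.75 ± 0.29, 1.95 ± 0.29 and 1.10 ± 0.28 at 1.5, 3 and 6 h (adjusted p = 0.00800, 0.00129 and 0.0145). Aldh3a1, a detoxifying aldehyde dehydrogenase and AhR target, held 243, 208 and 93.6 CPM at 3 h and 96.1, 160 and 186 CPM at 6 h, against 69.0, 59.9 and 44.0 CPM in control libraries. It rose by 1.65 ± 0.38 and 1.35 ± 0.38 (adjusted p = 0.0150 and 0.0226). In the libraries apart at 3 and 6 h, Ahr, Tiparp and Aldh3a1 were each the lowest of their group, where Aldh1a3 and Cyp24a1 were the highest.

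Nfe2l2, encoding the antioxidant factor NRF2, rose by 1.12 ± 0.15 and 0.89 ± 0.15 on the log2 scale at 3 and 6 h (adjusted p = 0.000901 and 0.00202), and the actin-severing gene Scin by 1.53 ± 0.50 at 6 h (adjusted p = 0.0385). Hsp90aa1, whose product is the chaperone that holds the unliganded AhR, fell by 0.53 ± 0.18 at 6 h (adjusted p = 0.0473). Several of these calls were lost when a single library was left out. The Ahr call at 3 h was lost without any 1 library other than replicate 3 at 3 h (0.83 to 1.06, adjusted p = 0.0509 to 0.0706), and at 6 h without control replicate 3 or replicate 2 or 3 at 6 h (0.74 to 0.82, adjusted p = 0.0595 to 0.0688). Tiparp lost its call at 1.5 h without control replicate 3 (1.64, adjusted p = 0.0530), and at 6 h without control replicate 3 or replicate 2 or 3 at 6 h (0.92 to 1.00, adjusted p = 0.0549 to 0.0608). For Aldh3a1 the call was lost without control replicate 2 or 3 or replicate 1 or 2 at 3 h (1.34 to 1.68, adjusted p = 0.0515 to 0.0638), and without control replicate 2 or 3 or replicate 2 or 3 at 6 h (1.08 to 1.38, adjusted p = 0.0639 to 0.0963). The Scin and Hsp90aa1 calls were each lost without any 1 library other than replicate 1 at 6 h (1.28 to 1.78, adjusted p = 0.0676 to 0.127, and -0.61 to -0.45, adjusted p = 0.0609 to 0.152).

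**Figure D4:**
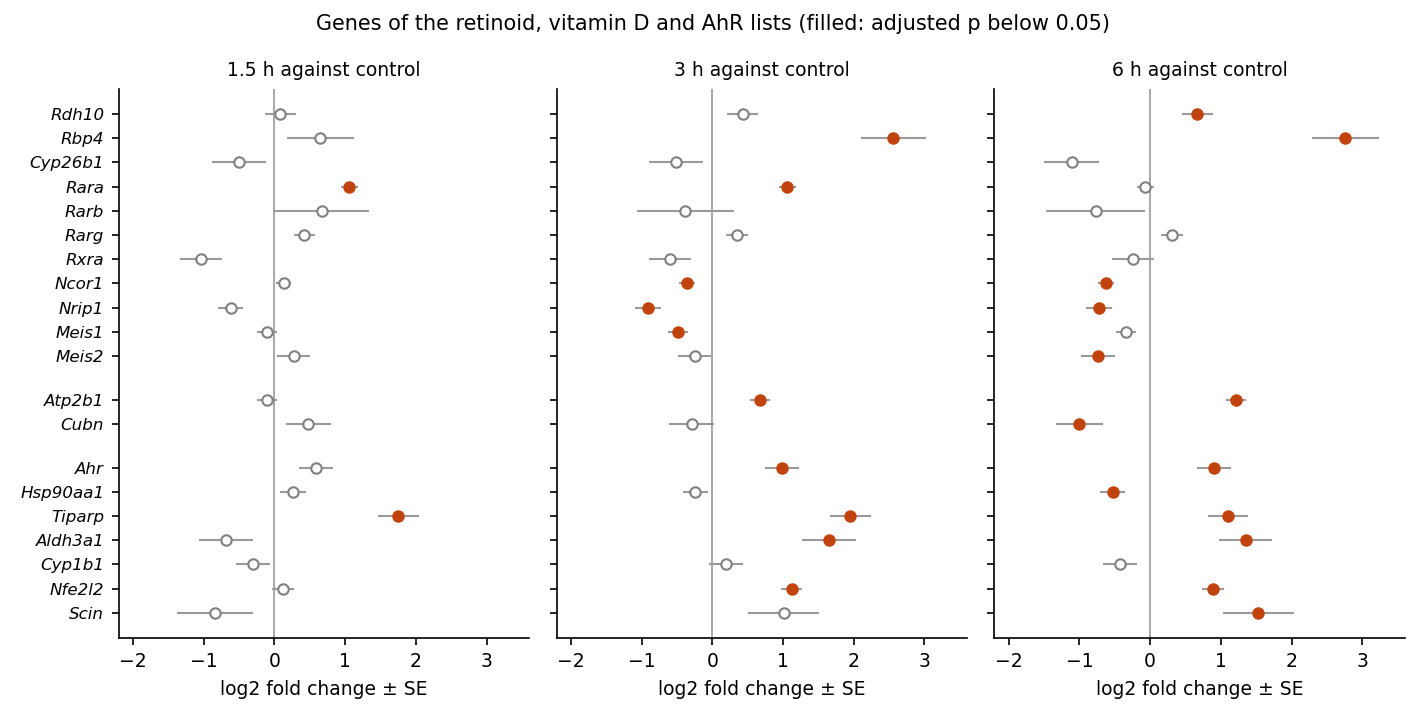
Log2 fold change against control with SE for 20 genes of the retinoid, vitamin D and AhR lists (top to bottom), 1 panel per time, with filled points where the adjusted p was below 0.05. Rara is filled at 1.5 and 3 h and lies at -0.07 at 6 h, Rbp4 lies at 2.56 and 2.76 at 3 and 6 h, and Tiparp is filled at all 3 times (1.75, 1.95 and 1.10).

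Beyond Aldh1a3, 0 of 13 tested aldehyde dehydrogenase genes were called at 1.5 h (1 at an unadjusted p below 0.05, 1 by DESeq2, 0 by limma), 5 rose at 3 h and 2 rose at 6 h. The shares that rose were 38.5% at 3 h and 15.4% at 6 h, against 13.5% and 18.7% of all tested genes. Besides Aldh3a1 the called genes encode enzymes of amino acid and folate metabolism. Aldh4a1, of proline breakdown, rose by 0.84 ± 0.15 at 3 h and 0.58 ± 0.15 at 6 h (adjusted p = 0.00379 and 0.0142). At 3 h Aldh18a1, of proline synthesis, rose by 0.91 ± 0.29, the mitochondrial folate enzyme gene Aldh1l2 by 0.65 ± 0.17, and Aldh6a1, of valine breakdown, by 0.58 ± 0.18 (adjusted p = 0.0474, 0.0260 and 0.0444). The Aldh4a1 call at 6 h was lost without control replicate 1 or 2 or replicate 2 or 3 at 6 h (0.50 to 0.56, adjusted p = 0.0548 to 0.0763). The Aldh18a1 and Aldh1l2 calls were lost without any 1 library other than replicate 3 at 3 h (0.64 to 0.94, adjusted p = 0.112 to 0.179, and 0.49 to 0.72, adjusted p = 0.0517 to 0.124), and the Aldh6a1 call without control replicate 1 or 2 or replicate 1 or 2 at 3 h (0.43 to 0.52, adjusted p = 0.147 to 0.204).

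The 3 enzymes did not share a profile. Over the 12 libraries Pearson's r of log2 CPM was 0.644 between Aldh1a3 and Cyp24a1, -0.684 between Aldh1a3 and Cyp1a1, and -0.304 between Cyp24a1 and Cyp1a1, as a description of libraries that fall into 4 groups. The tested genes with the most similar profile to Aldh1a3 were Bean1 (r = 0.989), Angel1 (0.975), Dnaaf5 (0.971), Caprin2 (0.971) and Inka2 (0.969), out of 9453 considered. Bean1 averaged 2.59, 3.13, 10.9 and 27.3 CPM at 0, 1.5, 3 and 6 h. For Cyp24a1 they were Rnf19b (r = 0.958), Vegfa (0.944), Bdkrb2 (0.943), Tbx3 (0.936) and Myoz3 (0.934). Vegfa, the vascular endothelial growth factor gene, averaged 28.8, 58.3, 93.9 and 57.5 CPM, and Bdkrb2, a bradykinin receptor gene, averaged 26.3, 106, 130 and 83.9 CPM. For Cyp1a1 they were Rsrp1 (r = 0.934), Gpr146 (0.930), Apeh (0.914), Map3k1 (0.911) and 0610040J01Rik (0.908). Rsrp1 averaged 39.8, 23.1, 35.9 and 15.7 CPM. All these points share the 12 libraries, their depth and the split within groups.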

How the data were processed

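RNA was measured in 12 libraries, grouped by the sample labels into 4 groups of 3. For each gene, the deposited values are an estimated count (of reads assigned to it) and an FPKM in every library, per the file headers. The submitters' processing notes name StringTie 2.2.1. Which aligner, build, annotation and strand setting the authors used is not given in the sources used here, so reads of a gene and of an overlapping antisense or near-identical gene cannot be told apart. Fractions occurred in 9.49% of the deposited counts, across 1343 genes, so counts were rounded for tests that had been planned for whole counts.

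Counts were fitted in R 4.3.3 with edgeR 4.0.16 (TMM scaling, filterByExpr, robust quasi-likelihood test, prior count of 0.125) to all 12 libraries, with no term besides the group. Of 9721 genes 9491 were tested, and p-values were Benjamini-Hochberg adjusted over all of them, with a threshold of 0.05. CPM values use TMM-scaled library sizes. Correlations use log2 CPM with a prior count of 2. The deposited FPKM values entered levels per length and limma 3.58.1 on log2(FPKM + 1) and log2(FPKM + 0.1), scales that understate changes of low genes. Other alternatives were RLE or library-size scaling, other filters, DESeq2 1.42.0, fits of 2 groups, the replicate number as a block, and leaving out libraries. Scaling by the depth that count and FPKM imply was added after seeing the data. Same-numbered libraries of control and 1.5 h deviated together from their group means (r across genes of 0.200 to 0.451), as did those of 1.5 and 3 h (0.166 to 0.224), while control against 3 and 6 h gave -0.027 to 0.035, and 3 against 6 h -0.657 to 0.599. The labels do not say what the numbers mark.

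The 3 enzymes, the gene lists, the markers and the set of libraries standing apart were chosen with earlier results of these data known. Of the markers, 0 of 6 ependymal and choroid plexus genes were in the table. The 7 of 11 endothelial and mural markers in it summed to 39.8 to 81.1 CPM over all libraries, the highest in replicate 3 at 3 h. Named genes were, per list, every called gene up to 8, fixed receptors and enzymes, and the 5 genes most correlated with each enzyme. Calls refer to the genes of this table, which holds part of a rat's genes.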

Additional observations from a re-analysis of the deposited data

Results flagged for a closer look

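For the genes below the effect differed between 2 times under edgeR's test of that difference itself. These differences come from the fit to all 12 libraries only, and no alternative setting or left-out library is given for them. Some rest on groups with unlike libraries or low levels. At 1.5 h Meis2 held 129, 134 and 81.5 CPM, and Scin 0.201, 0.627 and 0.604 CPM. Values are log2 differences of the later time against the earlier one ± SE, with adjusted p from 0.000236 to 0.0411, and 20.3%, 4.05% and 37.6% of all genes passed for 3 h against 1.5 h, 6 h against 3 h and 6 h against 1.5 h. The retinoid receptor gene Rara was lower at 6 h than at 3 h (-1.13 ± 0.13) and than at 1.5 h (-1.13 ± 0.13). Ncor1 was lower at 3 h (-0.48 ± 0.11) and 6 h (-0.75 ± 0.11) than at 1.5 h, as were Meis2 (-1.01 ± 0.24), Cubn (-1.49 ± 0.33) and Hsp90aa1 (-0.78 ± 0.18) at 6 h.

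Higher than at 1.5 h at both 3 h and 6 h were Rbp4 (1.91 ± 0.45 and 2.11 ± 0.45), Atp2b1 (0.77 ± 0.14 and 1.31 ± 0.14), Aldh3a1 (2.33 ± 0.39 and 2.03 ± 0.39), Scin (1.85 ± 0.53 and 2.38 ± 0.53), Nfe2l2 (1.00 ± 0.15 and 0.77 ± 0.15) and Aldh4a1 (0.68 ± 0.15 and 0.43 ± 0.15). Aldh1l2 was higher at 3 h than at 1.5 h (0.65 ± 0.17). The cause of these differences was not tested.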

How the results depend on the processing

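Aldh1a3 and Cyp24a1 kept a positive and Cyp1a1 a negative log2 fold change at every time under each alternative run. The size depended on scale and libraries. On log2(FPKM + 1) the values at 1.5, 3 and 6 h were 0.32, 1.67 and 3.40 for Aldh1a3 and 0.78, 1.72 and 0.90 for Cyp24a1, and on log2(FPKM + 0.1) Cyp24a1 stood at 2.58, 4.02 and 2.73. Both pseudocounts pull low control values up by construction. Without the 3 libraries standing apart Aldh1a3 was at 1.77 at 3 h and 4.03 at 6 h, and leaving out 1 library at a time gave 1.78 to 3.48 at 3 h. Cyp1a1 at 3 h was at -0.51 with library-size scaling, -0.48 and -0.49 on log2(FPKM + 1) and log2(FPKM + 0.1), and -0.48 with the depth implied by count and FPKM. At 6 h it was at -1.47, -1.43 (FPKM + 0.1) and -1.44 (implied depth). Cyp1b1 at 3 h turned to -0.14 with library-size scaling, -0.10 on both FPKM scales and -0.11 with the implied depth. The causes were not tested.

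Of the 52 ligand pathway genes, 2, 10 and 13 were called at 1.5, 3 and 6 h. DESeq2 called 4 at 1.5 h, and limma on log2(FPKM + 0.1) called 20 at 6 h. Without the 3 libraries standing apart the counts were 36, 33 and 40. Leaving out 1 library at a time gave 1 to 17, 6 to 15 and 5 to 18, with 17, 15 and 18 reached without replicate 3 at 1.5 h, replicate 3 at 3 h and replicate 1 at 6 h. At 3 h, 6 were called without any 1 control library or replicate 1. At 6 h there were 8, 7 and 5 without control replicates 1, 2 and 3, and 7 and 6 without replicates 2 and 3 at 6 h, and at 1.5 h there was 1 without control replicate 3. Of 31 calls on named genes, 12 held under all 17 alternatives, 19 were lost without at least 1 library, 0 reversed, and all 31 held without the libraries standing apart, where 13 of 17 uncalled values of fixed genes also passed. That setting narrows the spread through the choice of libraries. In it 59.2%, 70.9% and 75.1% of all genes were called at 1.5, 3 and 6 h. The replicate block gave 2, 8 and 12 pathway calls. It changed no call on a named gene at 1.5 h. It ended those of Ncor1, Meis1, Aldh18a1 and Aldh6a1 at 3 h (adjusted p = 0.0704, 0.0507, 0.0556 and 0.0591) and of Rdh10 and Cubn at 6 h (adjusted p = 0.0612 and 0.0708), times at which same-numbered control and treated libraries did not deviate together.

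With 3 libraries a group, and 1 of them apart at each treated time, changes near the threshold depend on single libraries. Cyp24a1 in control cells rests on 8 reads. The table holds part of the genes, and time and treatment share 1 control group at 0 h.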
